A study of Mus musculus with 6 samples.

Results

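The genes described here are 8 members of the sterol sensing system of the liver: Srebf1, Srebf2, Scap, Insig1, Insig2, Stard4, Npc1l1 and Rdh11. These genes, and the gene lists used below, were chosen by name with earlier results of these data known. The shares of all genes given beside their counts are therefore descriptive and are no independent support. Each of the 8 genes was read from the brightest probe set that the array annotation assigns to that symbol alone. This gave 8 of the 19938 genes tested. Livers came from C57BL/6 mice fed a regular diet (RD) or a high fat diet (HFD) freely for 2 days. Each diet had 3 biological replicates, with 1 array of total RNA per replicate. The labels do not say whether a replicate is 1 animal. NI stands in all 6 sample titles without explanation, and the sources used here give neither the age and sex of the mice nor the composition of the diets. The values are log2 signals as deposited, differences are HFD minus RD, and p-values are those of limma with Benjamini-Hochberg adjustment over all 19938 genes.

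SREBP transcription factors are made as precursors in the membrane of the endoplasmic reticulum. When sterols are low, the escort protein SCAP carries them to the Golgi, where proteases free the active factor; when sterols are high, INSIG proteins hold SCAP back. SREBP2, from Srebf2, mainly drives cholesterol synthesis and uptake, and SREBP1c, the main liver product of Srebf1, drives fatty acid synthesis. The Srebf1 gene is also activated by insulin and by the oxysterol receptor LXR, and INSIG proteins additionally mark sterol synthesis enzymes for degradation.

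After 2 days of HFD, most of these sterol genes fell and Srebf1 rose. Of the 8 genes, 5 were lower in HFD (Stard4, Rdh11, Srebf2, Insig1 and Scap), against 2.24% of all genes. Only Srebf1 was higher, against 3.11% of all genes, while Insig2 and Npc1l1 did not pass the threshold of 0.05. The median difference of the 8 genes was -0.37, and that of all 19938 genes was 0.00. In each of the 6 genes that passed, the 3 HFD arrays did not overlap the 3 RD arrays, with 5 lying wholly below and 1 wholly above; 11.7% of all genes lay wholly below and 14.0% wholly above. The calls of Stard4 and Rdh11 held when any 1 array was left out. Those of Srebf1, Srebf2 and Insig1 held only without RD replicate 3, and that of Scap was lost whichever of the 6 arrays was left out. With 1 array fewer, the count of lower genes was therefore 2 without RD replicate 1, RD replicate 2 or any HFD array, and 4 without RD replicate 3.

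**Figure D1:**
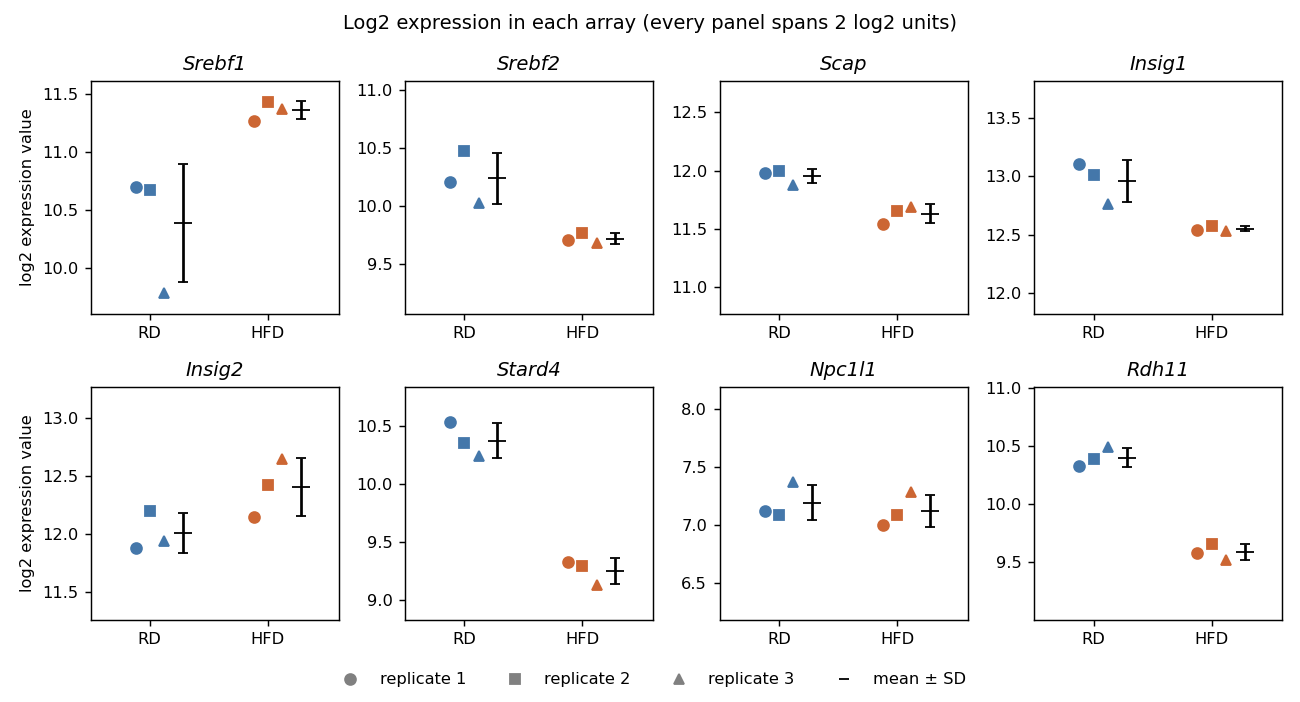
Log2 expression value of each gene (vertical axis, spanning 2 log2 units in every panel) in the 3 RD arrays and the 3 HFD arrays, with the mean and SD beside the points. Stard4 and Rdh11 are separated by the widest gaps relative to their spread, and the RD value of Srebf1 at 9.79 lies apart from its other RD values.

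Srebf2 fell. Its log2 values were 10.21, 10.47 and 10.03 in RD replicates 1, 2 and 3 and 9.71, 9.77 and 9.68 in the HFD replicates. Every HFD array lay below the lowest RD array, by 0.25, and the HFD arrays were closer together than the RD arrays. The mean went from 10.24 ± 0.22 to 9.72 ± 0.05 (SD, n = 3 each), a difference of -0.52 ± 0.11 (SE; adjusted p = 0.0336 in limma), or 69.9% of the RD level. Without RD replicate 2, its highest array, the difference was -0.40.

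Srebf1 moved the other way. Its log2 values were 10.70, 10.67 and 9.79 in RD and 11.27, 11.43 and 11.37 in HFD. All HFD arrays lay above the highest RD array, by 0.57, but RD replicate 3 was far below the other RD arrays. The difference was 0.97 ± 0.22 (adjusted p = 0.0402 in limma), a rise of 1.96-fold with a 95% interval of the log2 difference from 0.48 to 1.47. Without RD replicate 3 the difference was smaller, 0.68, and it passed (adjusted p = 0.00768), whereas without any other single array it did not pass (adjusted p up to 0.102). The spread of Srebf1 around its diet means was larger than that of 98.9% of genes. The array gives 1 value for Srebf1 and does not separate its isoforms 1a and 1c.

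The within-array difference Srebf1 minus Srebf2 compares the paralogs on 1 array at a time. It was 0.49, 0.19 and -0.24 in RD and 1.56, 1.66 and 1.69 in HFD. The shift was 1.49 ± 0.21 (SE) on the log2 scale, or 2.81-fold. The diets did not overlap, which had to follow because each gene alone already separated them, in opposite directions. An exact permutation test over the 6 arrays gave p = 0.1, two-sided, which is the smallest p that 3 against 3 arrays allow. That p was fixed by the same separation and is no further support. Leaving out any 1 array gave shifts from 1.30 to 1.66.

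The sequences before the gene starts are shown for this pair because their transcripts moved in opposite directions. They are RefSeq windows of 250 bases on the mouse build GRCm38.p6, 5′ to 3′ on the strand of the gene. Capitals mark 4 sets of letters, searched on both strands: TCACNCCA, the core of the sterol regulatory element; TCACNTGA, an E-box like element that SREBPs also bind; CACGTG, the canonical E-box; and CCAAT, the box of the factor NF-Y, which often works beside SREBPs. Of 32851 such windows of all genes, 3.7% held TCACNCCA, 3.5% TCACNTGA, 6.0% CACGTG and 33.8% CCAAT. The Srebf2 window lies at chr15:82147019-82147268 on the plus strand. Srebf1 has 3 windows, and the one shown, the farthest downstream, lies at chr11:60210472-60210721 on the minus strand.
Srebf2: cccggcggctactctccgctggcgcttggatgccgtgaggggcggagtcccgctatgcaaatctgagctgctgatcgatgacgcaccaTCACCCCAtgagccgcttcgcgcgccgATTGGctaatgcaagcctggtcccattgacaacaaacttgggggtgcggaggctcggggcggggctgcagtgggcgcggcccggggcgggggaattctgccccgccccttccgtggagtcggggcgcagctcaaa
Srebf1: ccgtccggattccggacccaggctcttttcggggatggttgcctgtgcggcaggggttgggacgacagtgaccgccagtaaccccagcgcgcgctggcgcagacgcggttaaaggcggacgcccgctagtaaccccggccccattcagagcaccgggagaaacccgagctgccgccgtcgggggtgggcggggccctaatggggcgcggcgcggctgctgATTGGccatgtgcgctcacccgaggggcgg
The Srebf2 window holds TCACCCCA, beginning 162 bases before the start, and a CCAAT box on the opposite strand, beginning 135 bases before it. The Srebf1 window shown holds a CCAAT box on the opposite strand, beginning 30 bases before the start, and no match to the other 3 sets of letters. Of the remaining Srebf1 windows, 1 holds a CCAAT box and 1 holds none of the 4. Only exact matches were marked, so an element that departs from these letters does not appear as a match in any window. The lack of a match is therefore not evidence that a window has no such element. The matches describe letters in the windows and were not tested as binding sites.

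Scap, the escort that carries both factors to the Golgi, was lower by a small amount. Its log2 values were 11.98, 12.00 and 11.88 in RD and 11.54, 11.65 and 11.69 in HFD. The diets were separated by 0.19, and both groups were tight, with SDs of 0.06 and 0.08. The difference was -0.33 ± 0.07 (adjusted p = 0.0376 in limma), or 79.8% of the RD level. The adjusted p was 0.0512 after centring each array on its median and lay between 0.059 and 0.129 when 1 array was left out, whichever it was.

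Of the INSIG genes, Insig1 fell and Insig2 did not pass. Insig1, itself a target of SREBPs, had log2 values of 13.11, 13.01 and 12.76 in RD and 12.54, 12.57 and 12.53 in HFD. The HFD arrays were almost identical and lay 0.19 below the lowest RD array. The difference was -0.41 ± 0.09 (adjusted p = 0.0412 in limma), or 75.2% of the RD level. It was -0.51 and passed without RD replicate 3 (adjusted p = 0.0173), and without each other array it did not pass (adjusted p up to 0.134). After median centring the adjusted p was 0.0529.

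Insig2 is the isoform whose liver transcript is known to be repressed by insulin. Its values were 11.88, 12.20 and 11.94 in RD and 12.15, 12.42 and 12.65 in HFD. HFD replicate 1 lay below RD replicate 2, so the diets overlapped. The difference of 0.40 ± 0.14 did not pass the threshold (adjusted p = 0.146 in limma; unadjusted p = 0.0177), and its 95% interval ran from 0.09 to 0.71. Its adjusted p stayed above 0.05 in all 6 fits that left out 1 array, with a lowest value of 0.0716.

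Within each array, Insig1 minus Insig2 was 1.23, 0.80 and 0.82 in RD and 0.39, 0.16 and -0.12 in HFD. No HFD array reached the lowest RD array. The shift was -0.81 ± 0.20 (SE; exact permutation p = 0.1, two-sided, the smallest possible), and it lay between -0.93 and -0.67 when 1 array was left out. The ratio of the Insig1 signal to the Insig2 signal was 1.75-fold lower in HFD.

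**Figure D2:**
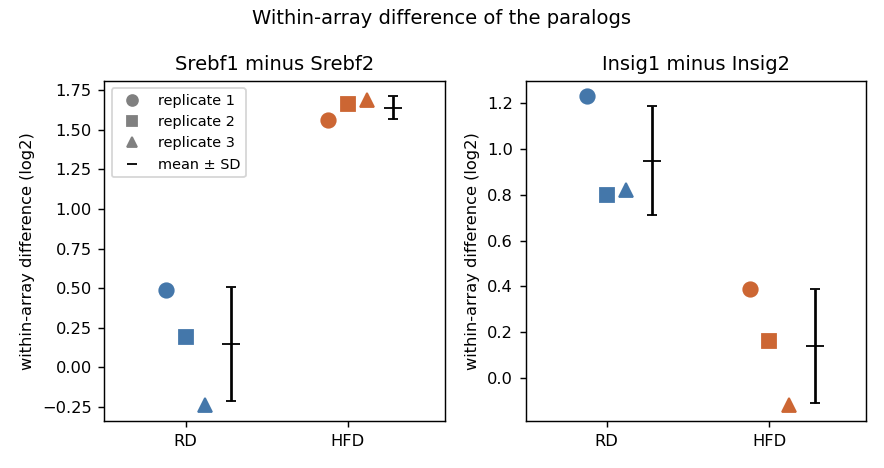
Within-array log2 difference (vertical axis) of Srebf1 minus Srebf2 and of Insig1 minus Insig2 in the 3 RD and 3 HFD arrays, with mean and SD beside the points. The mean Srebf difference is 0.15 in RD and 1.64 in HFD and the mean Insig difference is 0.95 and 0.14, without overlap of the diets in either panel. For the Srebf pair the lack of overlap follows from the values of each gene alone.

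The windows before the starts of the INSIG genes are shown because Insig1 passed the threshold and its paralog did not. The Insig1 window lies at chr5:28071162-28071411 on the plus strand. Insig2 has 3 windows, and the farthest upstream, at chr1:121332590-121332839 on the minus strand, is printed.
Insig1: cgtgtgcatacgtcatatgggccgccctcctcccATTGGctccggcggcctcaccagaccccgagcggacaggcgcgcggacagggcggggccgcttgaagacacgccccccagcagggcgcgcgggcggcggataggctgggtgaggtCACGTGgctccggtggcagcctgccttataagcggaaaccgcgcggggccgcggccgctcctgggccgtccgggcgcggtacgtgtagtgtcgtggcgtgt
Insig2: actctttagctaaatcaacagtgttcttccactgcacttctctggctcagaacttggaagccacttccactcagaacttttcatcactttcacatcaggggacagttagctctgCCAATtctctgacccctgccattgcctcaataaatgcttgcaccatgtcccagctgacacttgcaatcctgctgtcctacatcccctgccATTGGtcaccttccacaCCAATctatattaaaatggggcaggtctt
Insig1 holds CACGTG, beginning 101 bases before the start, and a CCAAT box on the opposite strand, beginning 216 bases before it. The Insig2 window printed holds 3 CCAAT boxes, of which 1 is on the opposite strand, and no match to the other sets. A further Insig2 window, the farthest downstream, holds TCACNTGA as TCAGGTGA on the opposite strand, beginning 16 bases before the start, and the remaining window holds none of the 4.

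Stard4 showed the largest difference of the 8 genes. It encodes a soluble carrier that moves cholesterol between membranes and is a known SREBP2 target. Its log2 values were 10.53, 10.35 and 10.24 in RD and 9.33, 9.29 and 9.13 in HFD. The gap between the diets, 0.90, was several times the spread within either diet. The mean fell from 10.37 ± 0.15 to 9.25 ± 0.11 (SD, n = 3 each), a difference of -1.12 ± 0.09 (adjusted p = 7.5e-04 in limma), or 45.9% of the RD level. Without 1 array the difference lay between -1.19 and -1.04, with adjusted p up to 0.00573.

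Rdh11 was the other clear fall. It encodes a retinal reductase of the short chain dehydrogenase family whose gene is regulated by SREBPs. Its log2 values were 10.33, 10.39 and 10.49 in RD and 9.58, 9.66 and 9.52 in HFD. The diets were 0.67 apart, and neither had an SD above 0.08. The difference was -0.81 ± 0.07 (adjusted p = 8.4e-04 in limma), or 56.9% of the RD level, and it lay between -0.85 and -0.77 without 1 array. A further probe set that names Rdh11 together with Pwwp3a was not used, and its difference was -0.08 ± 0.07. The same holds for a probe set that names Srebf2 among 4 genes, with a difference of 0.02 ± 0.07.

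Rdh11 has 2 windows, and the downstream one, at chr12:79190962-79191211 on the minus strand, is shown because it holds the most matches among the 13 windows of these genes.
Rdh11: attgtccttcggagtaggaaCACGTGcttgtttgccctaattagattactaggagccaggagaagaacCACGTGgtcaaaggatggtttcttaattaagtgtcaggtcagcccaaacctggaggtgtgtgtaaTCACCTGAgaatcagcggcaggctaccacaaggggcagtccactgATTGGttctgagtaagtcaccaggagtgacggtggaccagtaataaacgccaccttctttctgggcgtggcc
It holds TCACCTGA, beginning 117 bases before the start, CACGTG at 230 and at 182 bases before it, and a CCAAT box on the opposite strand at 72 bases. The upstream window of Rdh11 holds none of the 4. Of the windows not shown, 1 of the 2 of Scap holds CACGTG and the single window of Npc1l1 holds a CCAAT box. In all, 7 of the 8 genes have a window in the table, 1 of the 13 windows holds TCACNCCA, 2 hold TCACNTGA, 3 hold CACGTG and 7 hold CCAAT.

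Npc1l1, the transporter for cholesterol uptake from the gut lumen and, in some species, from bile, did not pass. Its log2 values were 7.12, 7.09 and 7.37 in RD and 7.00, 7.09 and 7.28 in HFD. The diets overlapped, and all values lay close to the array medians of 7.06 to 7.11. The difference was -0.07 ± 0.10 (adjusted p = 0.781 in limma), with a 95% interval from -0.30 to 0.17. Without detection calls, whether these values lie above background was not tested. None of 5 enterocyte markers passed in limma (0 at an unadjusted p under 0.05, and 0 in the unmoderated linear model). They included Vil1 at -0.04 ± 0.07 and Fabp2 at 0.22 ± 0.15. Except for Fabp2, these markers lay below the array medians in every array, and whether they lie above background was not tested.

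**Figure D3:**
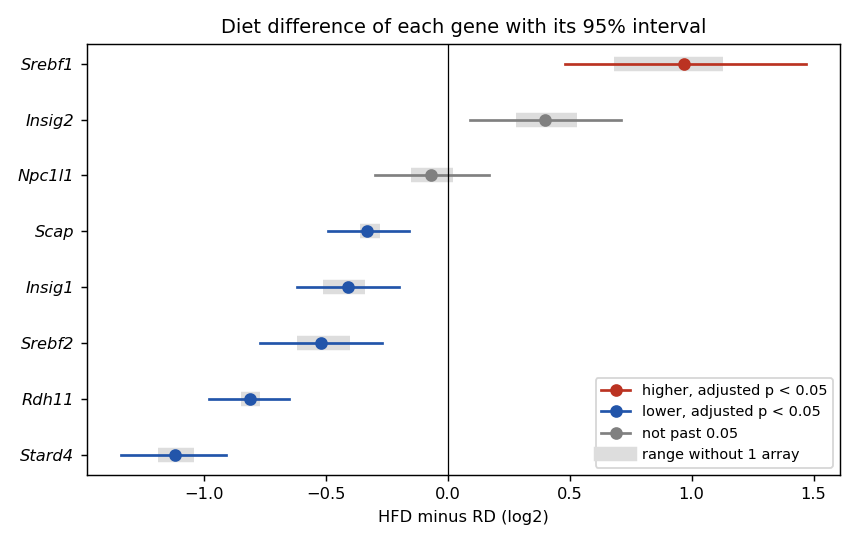
HFD minus RD on the log2 scale (horizontal axis) for each gene, with the limma estimate as a point, its 95% interval as a thin line and the range of estimates without 1 array as a grey band. Srebf1 lies to the right at 0.97, the 5 lower genes lie to the left down to Stard4 at -1.12, and the intervals of the 6 genes past the threshold and of Insig2 do not include 0.

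Tissue identity and cell markers were checked on the same arrays. The hepatocyte markers Alb, Ttr, Tat, Cps1 and Hnf4a lay between 13.41 and 14.44 on the log2 scale in all arrays, and 0 of these 5 passed in limma (0 at an unadjusted p under 0.05, and 0 in the unmoderated linear model). Alb, Ttr, Tat and Cps1, at 14.02 or more, lay near the highest value of the arrays, 14.86. Whether signals are compressed there, which would hide a change, was not tested. Of the markers of other cells, 2 lists held calls. In these, 4 of 6 Kupffer cell markers and 4 of 4 cholangiocyte markers were higher in HFD, against 3.11% of all genes. The summed linear signal of the Kupffer cell markers was 7523 to 8070 in RD and 9365 to 12519 in HFD. That of the cholangiocyte markers was 841 to 931 in RD and 1142 to 1300 in HFD. The Kupffer count was 1 without RD replicate 1 or 2 and 2 without RD replicate 3 or HFD replicate 3; the cholangiocyte count fell to 0 when the first replicate of either diet was left out and to 1 for each of the other arrays. Whether every marker of these lists lies above background was not tested. The cholangiocyte marker Epcam, at 6.02 to 6.31 in RD and 6.59 to 6.84 in HFD, lay below the array medians of 7.06 to 7.11. In limma, 0 of 4 markers of sinusoidal endothelium, 0 of 5 of stellate cells, 0 of 3 of lymphocytes, 0 of 2 of adipocytes and 0 of 3 of pancreatic acinar cells passed (1 lymphocyte marker and none of the others at an unadjusted p under 0.05, and 0 in the unmoderated linear model). Their part in the differences of the 8 genes was not tested, and in whole liver RNA fewer cells of a type and less RNA per cell cannot be told apart.

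The enzymes of cholesterol synthesis, the main targets of SREBP2, fell with Srebf2, Insig1, Stard4 and Rdh11. Of 17 measured, 17 were lower and 0 higher in limma, against 2.24% and 3.11% of all genes. Their median was -1.10, and that of all genes was 0.00. Nsdhl, which removes a methyl group from sterol intermediates, went from 12.17 ± 0.08 to 9.96 ± 0.07 (SD, n = 3 each), a difference of -2.21 ± 0.07. The log2 difference was -2.84 ± 0.13 for squalene epoxidase Sqle, -2.17 ± 0.13 for the sterol methyl oxidase Msmo1 and -1.71 ± 0.11 for the farnesyl diphosphate synthase Fdps. All 17 differences, from -2.84 to -0.59, were more negative than that of Srebf2 itself, at -0.52; the genes are read by different probe sets, so the comparison is of differences, not of levels. Without 1 array, 16 or 17 remained past the threshold.

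Lipogenic genes driven by SREBP1 fell or did not pass, while Srebf1 rose. Of 14 measured, 8 fell and 0 rose in limma, against 2.24% and 3.11% of all genes. At an unadjusted p under 0.05 there were 11, against 19.7% of all genes. The median was -0.63, and only 2 differences were positive, the higher at 0.06. The acetyl-CoA carboxylase Acacb had log2 values of 10.58, 10.50 and 10.48 in RD and 9.13, 9.33 and 9.21 in HFD, while Srebf1 was higher in each of the same HFD arrays than in any RD array. The log2 difference was -0.98 ± 0.07 for the acetyl-CoA synthetase Acss2, -0.70 ± 0.08 for the elongase Elovl5 and -0.83 ± 0.11 for the citrate lyase Acly. Those that did not pass were Thrsp at -1.34 ± 0.33, Fasn at -0.58 ± 0.15 and Slc25a1 at -0.22 ± 0.06. The others were the carboxylase Acaca at -0.24 ± 0.12, Mid1ip1 at 0.06 ± 0.08 and Scd1 at 0.02 ± 0.06. Scd1, at 14.32 to 14.37 in all arrays, lay near the highest value of the arrays, 14.86. Whether its signal is compressed there, which would hide a change, was not tested. Without 1 array, 6 to 9 members fell.

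A list of LXR responsive genes also held the LXR gene Nr1h3 and its partner receptor genes Rxra and Rxrb, none of which passed. Of the 10 measured, 4 rose and 1 fell, against 3.11% and 2.24% of all genes, with a median of 0.12. The sterol exporters rose, Abcg5 by 1.11 ± 0.06, Abcg8 by 1.09 ± 0.08, Abcg1 by 1.13 ± 0.08 and Abca1 by 0.58 ± 0.10, the last a call lost without RD replicate 2 or RD replicate 3. The phospholipid transfer protein Pltp fell by 1.08 ± 0.11 on the log2 scale. Without 1 array, 3 or 4 members rose and 1 fell.

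Apart from Scap, which is in neither list, the genes of SREBP transport and cleavage and of sterol regulated degradation held no call. Of 12 genes of SREBP transport and cleavage, 0 passed in limma (3 at an unadjusted p under 0.05, against 19.7% of all genes, and 0 in the unmoderated linear model), with a median of -0.05; the COPII coat gene Sec24c was at -0.29 ± 0.07 (adjusted p = 0.0541) and Sec24a at -0.27 ± 0.07. Paqr3, which tethers SCAP to the Golgi, was at -0.24 ± 0.09, and the coat gene Sec13 was at 0.18 ± 0.08. Of 11 genes of sterol regulated degradation at the endoplasmic reticulum, 0 passed in limma (3 at an unadjusted p under 0.05, against the same 19.7%, and 0 in the unmoderated linear model), with a median of 0.10. In it the ubiquitin ligase Rnf145 was at 0.40 ± 0.10 (adjusted p = 0.0511 in limma) and Erlin1, a membrane scaffold, at 0.24 ± 0.06. The differences of Nploc4, a cofactor of the segregase VCP, and of the ligase Rnf139 were 0.18 ± 0.06 and 0.16 ± 0.07.

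Lists of sterol transport genes and of short chain dehydrogenases, the families of function around Stard4 and Rdh11, held calls in both directions. Among 20 genes of sterol carriers and intracellular sterol transport, 2 fell and 1 rose, against 2.24% and 3.11% of all genes (9 at an unadjusted p under 0.05, against 19.7%), with a median of 0.01. Tmem97, which binds the lysosomal sterol transporter, fell by 0.54 ± 0.08 on the log2 scale. The related START domain gene Stard3 was at 0.23 ± 0.06 and did not pass, whereas Stard4 was at -1.12. Flot1 rose by 0.46 ± 0.08, a call kept only without RD replicate 3 or HFD replicate 3, and Rab11fip2 fell by 0.59 ± 0.13 on the log2 scale, a call lost without any 1 of the arrays. Of 10 other retinol dehydrogenases of the short chain family, 2 fell and 1 rose, against 2.24% and 3.11% of all genes, with a median of -0.08. Rdh16 was at -1.05 ± 0.09 and Rdh5 at -0.46 ± 0.10, the latter a call kept only without RD replicate 1. Dhrs9 rose by 1.49 ± 0.16, and Rdh13 was at -0.23 ± 0.07 and did not pass.

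**Figure D4:**
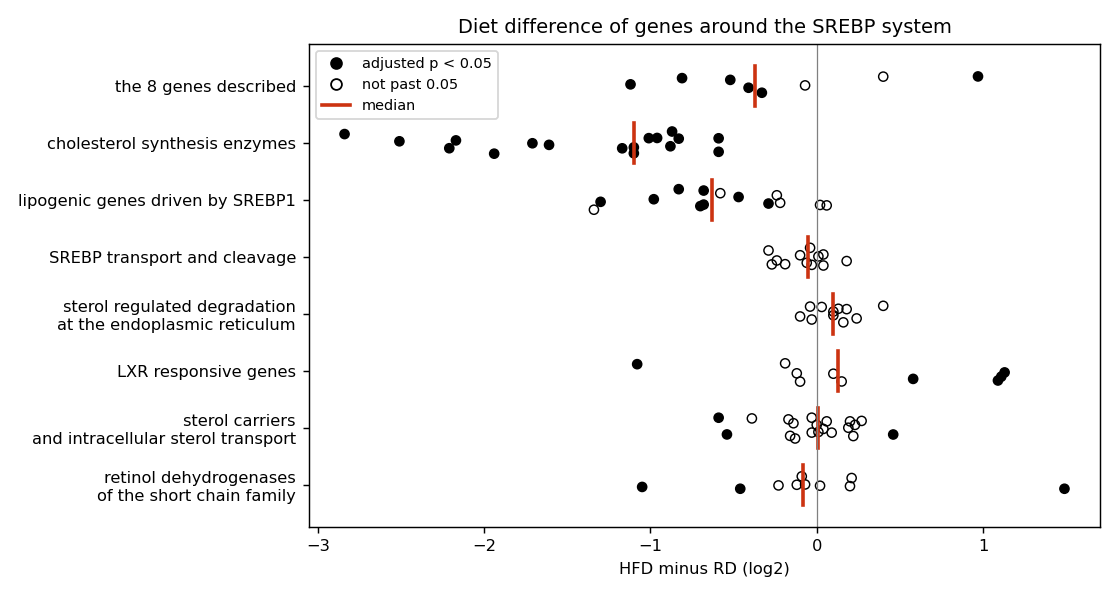
HFD minus RD on the log2 scale (horizontal axis) for every measured gene of each list (rows), with filled points for an adjusted p under 0.05, open points for the rest and a red line at each median. The 17 cholesterol synthesis enzymes all lie left of 0, lipogenic genes have a median of -0.63, and the transport and degradation lists hold open points only.

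For each of the 6 genes past the threshold, the genes with the nearest profile were found by the root mean square difference over the 6 arrays, after subtraction of each gene's RD mean. Stard4 lay nearest to the sterol enzymes Hsd17b7 (0.088) and Lss (0.089), followed by the urate pathway enzyme gene Urad (0.103). Srebf2 lay nearest to Ido2 (0.030), Scnn1a (0.052) and Trp53inp2 (0.053). For Scap these were Mrap2 (0.029), Ube4b (0.034) and Atg7 (0.034), and for Insig1 they were Igfbp4 (0.047), Rnf103 (0.060) and Arf3 (0.061). Rdh11 lay nearest to Tmem25 (0.052), Plxnb1 (0.073) and Slc44a3 (0.086). Srebf1 had no equally close neighbour, with Osgin1 at 0.171, Fyb2 at 0.222 and Reg1 at 0.223. Nearness here describes these arrays, which share the diet contrast, and it depends on the size of the difference as well as on the spread.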

How the data were processed

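Values are log2 expression per probe set in the table as deposited; the authors' normalization is not named in the labels or the file, and base 2 was read from the range of 2.28 to 14.86. Per the labels' protocols, total RNA was labelled with a GeneChip terminal labelling kit. Of 35512 probe sets, 21789 carried 1 gene symbol in the platform annotation, which can be old, and the brightest per gene by mean over 6 arrays gave 19938 genes, dim ones included. limma 3.58.1 in R 4.3.3 fitted diet, with two-sided tests adjusted by Benjamini-Hochberg across the 19938 genes, called at 0.05 and checked on simulated data. Paralog contrasts used an exact permutation test. The labels call the samples biological replicates without naming animals, and precision is limited by having 3 arrays per diet.

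The members and gene lists were chosen with earlier results of these data known. Named were all members, up to 4 genes per list with the smallest unadjusted p, and the 3 nearest profiles of each member past the threshold, leaving out predicted, small RNA, olfactory and vomeronasal genes. The lipogenic genes that did not pass were named in addition. Alternatives covered scaling, filters, probe set choice, the prior, weights for arrays, a block for replicate number and each array left out.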

Additional observations from a re-analysis of the deposited data

How the results depend on the processing

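The count of 5 lower members stayed at 5 under quantile normalization, genes above the median level only, the mean of all probe sets, an intensity trend with a robust prior, and array weights. It was 3 under median centring, 2 when every row of the table was tested, 1 in the unmoderated linear model, and 2 when a fold of at least 1.5 was also required. Without 1 array it was 2 to 4. The count of 1 higher member was 0 when every row was tested, with an intensity trend and robust prior, and in the unmoderated linear model, and 0 to 1 without 1 array. With the replicate number as a block, 3 members were lower and 0 higher; the numbers were not shown to pair the samples, since deviations of same-numbered arrays correlated at -0.107, 7.2e-05 and 0.117. The cause of these moves was not tested, except that every row of the table adds tests and a left-out array removes a sample. The calls behind them were those of Srebf1, Srebf2, Scap and Insig1 and, in the unmoderated model, also that of Stard4. The differences of Srebf1, Srebf2, Scap and Insig1 stayed within 0.94 to 0.99, -0.54 to -0.50, -0.33 to -0.30 and -0.43 to -0.39 under the settings that kept all 6 arrays. Rdh11 passed under all of these settings (adjusted p up to 0.047) and Stard4 under all but the unmoderated model (adjusted p = 0.0573). The sign of Npc1l1, which never passed, turned to 0.02 without RD replicate 3, in a range of -0.15 to 0.02 without 1 array. In the unmoderated model, the number of calls was 7 against 17 for cholesterol synthesis, 2 against 8 for lipogenic genes and 3 against 5 for LXR responsive genes, and 0 for sterol carriers, retinol dehydrogenases, Kupffer cell markers and cholangiocyte markers; the block gave 16, 7, 4, 2, 2, 3 and 1 for these lists in the same order. Signal over background was not measured here and limits what can be said of Npc1l1.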

Other observations

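RD replicate 3 had the lowest RD value for 5 of the 8 members (Srebf1, Srebf2, Scap, Insig1 and Stard4), while it was the lowest RD array for 28.0% of all genes and the highest for 40.1%. For Rdh11 and Npc1l1 it was the highest RD array. Its mean correlation with the other RD arrays across genes, which are not independent replicates, was 0.9964, against 0.9970 and 0.9967 for RD replicates 1 and 2.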
